A study of Mus musculus with 48 samples.

Results

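The genes described here are 5 of the liver's genes for making and supplying glucose, and 1 coactivator that acts on them: Pck1, G6pc, Fbp1, Pcx, Aqp9 and Ppargc1a. They were measured in the livers of mice with and without p110α in hepatocytes. The members were chosen by name, as the probes on the array that are annotated to one of the 6 genes. This gave 8 of the 56605 probes: 1 each for Pck1, G6pc, Fbp1 and Pcx, and 2 each for Ppargc1a and Aqp9. All 8 were well above background on 48 of 48 arrays, and all 8 were among the 30793 probes that passed the filter on dim probes.

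The 48 arrays came from 48 male mice in 8 groups of 6. Control mice (p110αhep+/+) carried floxed p110α alleles without Cre, and knockout mice (p110αhep-/-) were p110αflox/flox with 1 copy of an albumin-Cre transgene, whose promoter is active in hepatocytes. Whether other liver cells kept the gene was not examined here. From 12 weeks of age the mice received a control diet (CTRL, D12450J) or a high-fat diet (HFD, D12492, with 60% of calories from fat) for 12 weeks. They were then killed at ZT16, 16 h after lights on, either fed ad libitum or after a 24 h fast. Labelled by genotype, diet and state, the groups cover every combination.

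The Agilent 1-colour arrays gave 52.3 to 59.3% of spots well above background, and no spot other than control spots was saturated. The 6 slides each held 1 array of every group, and the 2 washing batches each held 3 arrays of every group. The probe for Pik3ca, the gene that encodes p110α, was called higher, not lower, in the knockout groups in 3 of 4 comparisons. Its log2 differences were 0.39 in fed CTRL (adjusted p = 0.000402), 0.58 in fed HFD (adjusted p = 2.79e-07), 0.07 in fasted CTRL (adjusted p = 0.534) and 0.25 in fasted HFD mice (adjusted p = 0.0177). The deletion could therefore not be checked on this probe, and the genotypes are used as labelled. Hepatocyte markers (Alb, Ttr, Apoa1, Tat) were well expressed everywhere, with a summed signal of 811100 to 945400 over all arrays. With fasting, 2 of these 4 genes were higher in HFD p110αhep+/+ livers, and 2 were higher and 1 lower in CTRL p110αhep-/- livers. Endothelial markers were higher in fasted HFD p110αhep-/- than in p110αhep+/+ livers in 4 of 4 genes (median log2 difference 0.42), with summed signals of 16580 to 18800 and 10220 to 17460. They were higher in 2 of 4 genes in fasted CTRL mice, where the summed signals did not overlap (16640 to 18970 and 12200 to 16630), and in 1 of 4 in fed mice of either diet. Of 3 leukocyte markers measured, 2 were higher in fed HFD p110αhep-/- than p110αhep+/+ livers, 2 were higher with fasting in HFD p110αhep+/+ livers, and 2 were lower with HFD in fed p110αhep+/+ livers. Cholangiocyte markers were lower in knockout livers in 2 to 3 of 4 genes in each diet and state. With fasting, cholangiocyte markers were lower in 2 of 4 genes on CTRL diet in both genotypes, stellate markers in 2 of 4 in CTRL p110αhep+/+ and HFD p110αhep-/- livers, and endothelial markers in 2 of 4 in HFD p110αhep+/+ livers. Endothelial markers were also lower in 2 of 4 genes with HFD in fasted p110αhep+/+ livers. Over all genes, 21.7% to 36.8% were called in the genotype comparisons and 28.5% to 35.6% in the fasting comparisons. With HFD in p110αhep+/+ livers the shares were 24% fed and 16.1% fasted. The part of these marker shifts in the results was not tested. In whole liver RNA, fewer cells of a type and less RNA per cell cannot be told apart.

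Gluconeogenesis builds glucose from lactate, amino acids and glycerol, and in the liver it keeps blood glucose up during fasting. Pyruvate carboxylase (Pcx) turns pyruvate into oxaloacetate, and cytosolic phosphoenolpyruvate carboxykinase (Pck1) turns oxaloacetate into phosphoenolpyruvate. Fructose-1,6-bisphosphatase (Fbp1) and the catalytic subunit of glucose-6-phosphatase (G6pc) carry out the later irreversible steps, the last of which frees glucose. Aqp9 is the hepatocyte channel through which glycerol enters. PGC-1α, encoded by Ppargc1a, is a transcriptional coactivator that is induced by glucagon and cAMP and acts on the Pck1 and G6pc promoters together with FOXO1 and HNF4α. Insulin, acting through PI3K and AKT, keeps FOXO1 out of the nucleus.

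The probes lie at the following places on mouse build mm9, as annotated in the scanner files. The Pck1 probe is at chr2:172984307-172984366 (plus strand), the G6pc probe at chr11:101238947-101239006 (plus), the Fbp1 probe at chr13:62966175-62966234 (minus) and the Pcx probe at chr19:4621610-4621669 (plus). The brighter Ppargc1a probe is at chr5:51848928-51848987 and the other at chr5:51849419-51849478, both on the minus strand. The brighter Aqp9 probe is at chr9:70958495-70958554 and the other, assigned to a predicted transcript, at chr9:71015550-71015609, both on the minus strand. A gene is represented by its brighter probe unless the other is named.

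The promoters of the 3 members whose regulation by hormones is best known are shown because fasting, genotype and diet were compared at the level of their transcripts. Each run holds the 250 bases before the gene start in RefSeq's annotation of GRCm38.p6, read 5′ to 3′ on the gene's strand. Capitals mark exact matches, on either strand, to the motifs searched. Pck1 is at chr2:173152823-173153072 (plus), G6pc at chr11:101367466-101367715 (plus) and Ppargc1a at chr5:51567726-51567975 (minus).
Pck1: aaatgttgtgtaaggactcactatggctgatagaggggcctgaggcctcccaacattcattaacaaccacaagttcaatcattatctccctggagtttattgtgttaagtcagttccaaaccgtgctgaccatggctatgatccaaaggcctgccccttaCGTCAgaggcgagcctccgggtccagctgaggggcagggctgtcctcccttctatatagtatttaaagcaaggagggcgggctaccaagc
G6pc: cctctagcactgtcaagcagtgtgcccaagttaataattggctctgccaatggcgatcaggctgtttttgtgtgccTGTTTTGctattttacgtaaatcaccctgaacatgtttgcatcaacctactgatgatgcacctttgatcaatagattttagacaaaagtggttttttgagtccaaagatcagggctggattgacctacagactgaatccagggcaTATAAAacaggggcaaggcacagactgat
Ppargc1a: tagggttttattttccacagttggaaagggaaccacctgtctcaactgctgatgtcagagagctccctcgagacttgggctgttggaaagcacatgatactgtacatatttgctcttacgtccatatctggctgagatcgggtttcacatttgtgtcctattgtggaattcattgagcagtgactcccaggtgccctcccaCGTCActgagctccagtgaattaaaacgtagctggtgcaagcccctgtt
The Pck1 and Ppargc1a runs each hold 1 match to TGACG, the first bases of the cAMP response element TGACGTCA, on the minus strand (CGTCA as printed). In Pck1 the match begins 90 bases before the start, and in Ppargc1a 49 bases before it. TGACG occurs in 17.8% of the 32851 promoters of the table, and TGACGTCA, which contains it, in 1.55% and in no member. The G6pc run holds TGTTTTG, a form of the insulin response sequence found in 5.56% of promoters, and a TATA box (TATAAA, 12.4% of promoters) that begins 29 bases before the start. The forkhead core TGTTTAC (3.17% of promoters) and TATTTTG (3.95%) were in no member promoter. TGTTCT (16.1%), the core of a glucocorticoid receptor site, was found in 1 of the 2 Aqp9 starts. Fbp1 and both Pcx starts held none of these letters. These matches describe the sequence and are not evidence of binding.

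**Figure D1:**
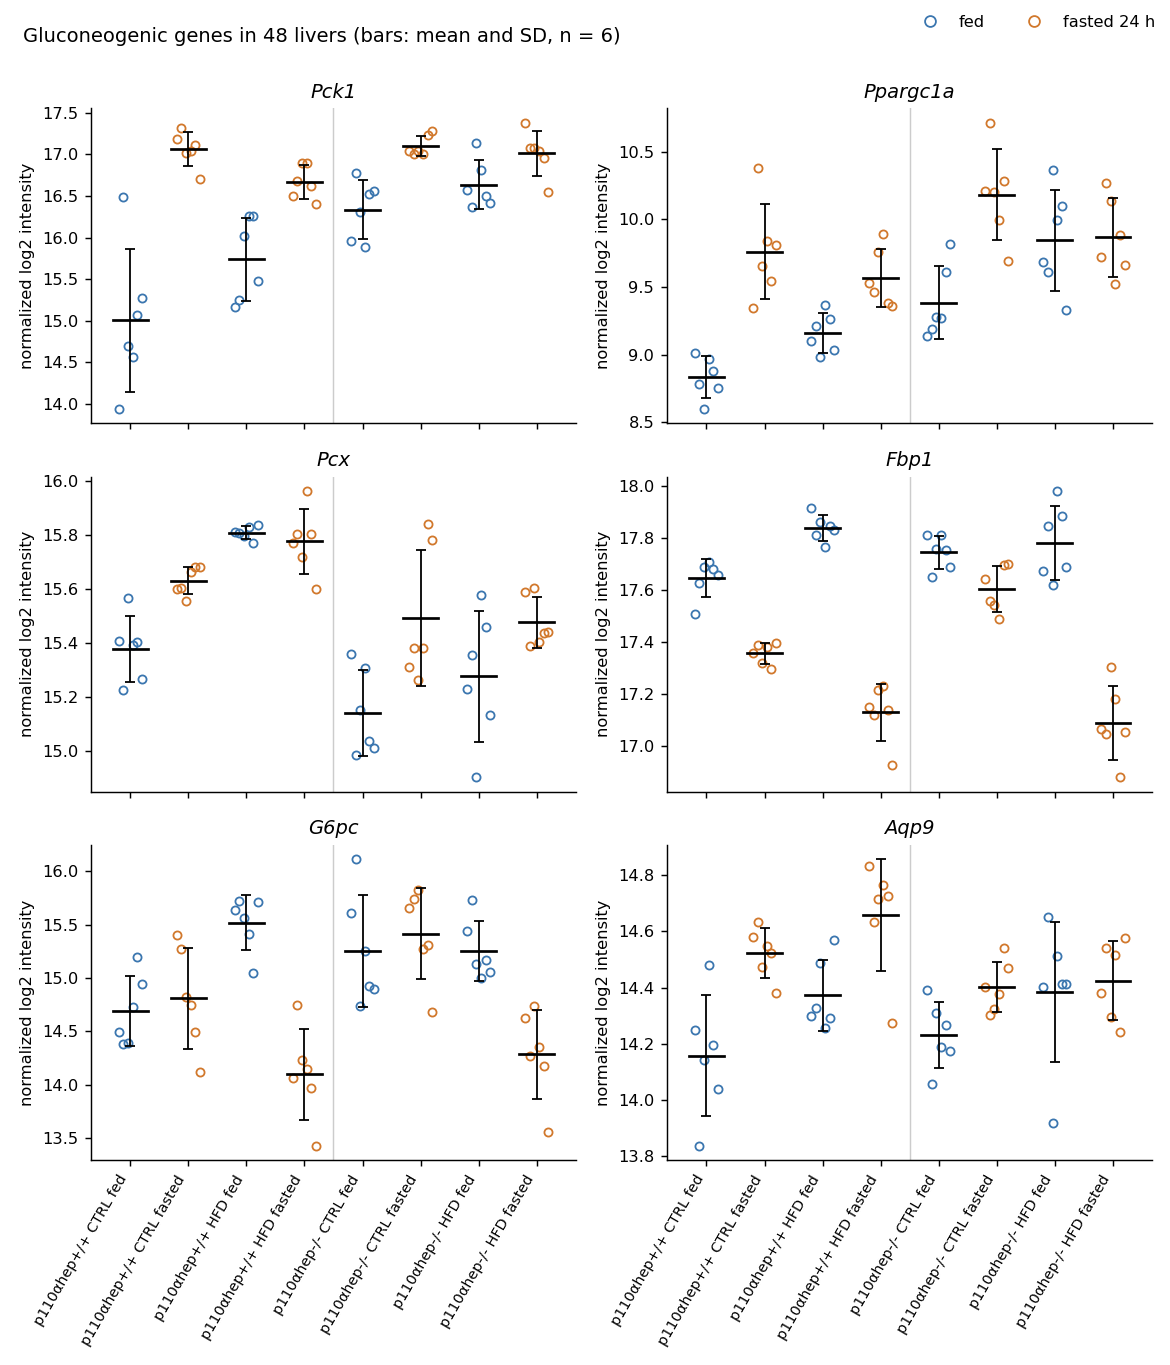
Normalized log2 level of each gene (vertical axis) in the 8 groups of genotype, diet and nutritional state; each open circle is 1 array, blue for fed and orange for 24 h fasted, with the mean and SD of 6 arrays. Pck1 is lowest and most spread in fed p110αhep+/+ mice on CTRL diet, while Fbp1 and G6pc sit lowest in the fasted HFD groups.

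The response to a 24 h fast was first examined in each genotype and diet. Fasting raised Pck1 most in control mice on CTRL diet, 4.53-fold, and Ppargc1a rose in 3 of the 4 comparisons. Fbp1 fell in 4 of 4, and G6pc fell in both genotypes on HFD with no change called on CTRL diet. Levels are normalized log2 intensities and differences are log2 fold changes from a weighted limma fit over all 48 arrays, so a fitted difference can depart slightly from that of the plain means. A call is an adjusted p of at most 0.05 after Benjamini-Hochberg adjustment over all probes kept.

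Pck1 in fed CTRL p110αhep+/+ livers had a log2 level of 13.94, 14.89 and 16.49 (lowest, median and highest), and in fasted ones 16.70, 17.08 and 17.32. These groups did not overlap, and the fed group was the most spread of all 8 (15.01 ± 0.86, SD, n = 6), with 1 array at 16.49 and the other 5 at or below 15.27. The fitted difference was 2.18 (SE 0.20, limma adjusted p = 2.78e-11), and 2.38 without that array.

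On HFD, Pck1 in p110αhep+/+ livers went from 15.17, 15.75 and 16.26 when fed to 16.40, 16.65 and 16.90 when fasted. The ranges were again separate, with a log2 difference of 0.95 (SE 0.20, adjusted p = 0.000241). In CTRL p110αhep-/- livers the fed values were 15.89, 16.415 and 16.77 and the fasted ones 17.00, 17.04 and 17.28. The difference of 0.76 (adjusted p = 0.00340) separated the groups. In HFD p110αhep-/- livers, at 16.37, 16.53 and 17.14 fed and 16.55, 17.06 and 17.38 fasted, the difference of 0.47 (95% CI 0.01 to 0.93, adjusted p = 0.123) was not called under the settings used here, though it was called with median scaling (0.66, adjusted p = 0.0353) and with scaled processed signals (0.63, adjusted p = 0.0427). Fasting thus left the 4 fasted groups within 16.40 to 17.38, while the fed groups ranged from 13.94 to 17.14.

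Ppargc1a followed Pck1 in direction. In CTRL p110αhep+/+ livers it was 8.60, 8.83 and 9.02 when fed and 9.35, 9.73 and 10.38 when fasted, a separation of 0.93 (SE 0.14, adjusted p = 1.83e-06). In CTRL p110αhep-/- livers it was 9.13, 9.27 and 9.82 fed and 9.69, 10.20 and 10.71 fasted, with overlap and a difference of 0.83 (adjusted p = 1.52e-05). The second probe gave 0.73 and 0.79 for these comparisons. On HFD the rise was 0.43 in p110αhep+/+ livers (adjusted p = 0.0160), from 8.98, 9.15 and 9.37 to 9.36, 9.50 and 9.89. It was 0.21 (adjusted p = 0.575) and 0.66 (adjusted p = 0.0226) within the washing batches, and was not called without array weights (0.41, adjusted p = 0.0592). In HFD p110αhep-/- livers Ppargc1a already reached 9.33, 9.84 and 10.36 when fed and was 9.52, 9.80 and 10.27 when fasted. The difference there was 0.11 (95% CI -0.21 to 0.44, adjusted p = 0.660).

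At the entry of the pathway, Pcx rose on CTRL diet in both genotypes, by 0.23 in p110αhep+/+ (adjusted p = 0.0205) and 0.28 in p110αhep-/- livers (adjusted p = 0.00443). Its values in p110αhep+/+ livers were 15.22, 15.40 and 15.57 fed and 15.56, 15.63 and 15.68 fasted, and in p110αhep-/- livers 14.99, 15.10 and 15.36 fed and 15.26, 15.38 and 15.84 fasted. Both pairs overlapped. On HFD no change was called, with -0.02 in p110αhep+/+ (95% CI -0.17 to 0.13) and 0.15 in p110αhep-/- livers (95% CI -0.02 to 0.33), the latter called with median scaling (0.24, adjusted p = 0.0435).

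Fbp1 moved the other way from Pck1. In HFD p110αhep+/+ livers it was 17.77, 17.84 and 17.92 fed and 16.92, 17.14 and 17.23 fasted, a separation of -0.68 (SE 0.05, adjusted p = 3.86e-14). In HFD p110αhep-/- livers the values were 17.62, 17.77 and 17.98 fed and 16.88, 17.06 and 17.30 fasted, again without overlap, at -0.71 (SE 0.06, adjusted p = 4.18e-12). On CTRL diet the falls were smaller, at -0.29 in p110αhep+/+ (adjusted p = 2.46e-05) and -0.16 in p110αhep-/- livers (adjusted p = 0.0145). These CTRL diet calls depended on the normalization between arrays, since median scaling gave -0.10 (adjusted p = 0.168) and -0.03 (adjusted p = 0.696). The HFD falls were called under all 15 alternative settings that refitted them, with values of -0.75 to -0.58 in p110αhep+/+ and -0.81 to -0.55 in p110αhep-/- livers.

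G6pc, which frees glucose in the last step, also fell with fasting on HFD. In p110αhep+/+ livers it was 15.04, 15.60 and 15.72 fed and 13.43, 14.11 and 14.75 fasted, a separation of -1.35 (2.55-fold, adjusted p = 1.25e-06). In p110αhep-/- livers it was 15.002, 15.15 and 15.74 fed and 13.56, 14.31 and 14.74 fasted, also without overlap, at -1.003 (2.00-fold, adjusted p = 0.000938), and at -0.90 and -0.84 within the washing batches, where neither was called. On CTRL diet the differences were 0.08 in p110αhep+/+ (95% CI -0.33 to 0.50) and 0.34 in p110αhep-/- livers (95% CI -0.08 to 0.77), neither called. The latter was called within washing batch 1 (0.68, adjusted p = 0.0324).

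Aqp9 rose with fasting in p110αhep+/+ livers, by 0.35 on CTRL diet (adjusted p = 0.000642) and 0.30 on HFD (adjusted p = 0.00277). The values were 13.84, 14.17 and 14.48 fed and 14.38, 14.53 and 14.63 fasted on CTRL diet, and 14.26, 14.31 and 14.57 fed and 14.28, 14.72 and 14.83 fasted on HFD. All of these groups overlapped. In p110αhep-/- livers it was 0.14 on CTRL diet (adjusted p = 0.187), a value called with median scaling (0.27, adjusted p = 0.00928), and -0.03 on HFD (adjusted p = 0.877). The dimmer Aqp9 probe gave 0.23 in CTRL p110αhep+/+ livers (adjusted p = 0.0446) and -0.02 in HFD ones, so the probes disagree on HFD.

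**Figure D2:**
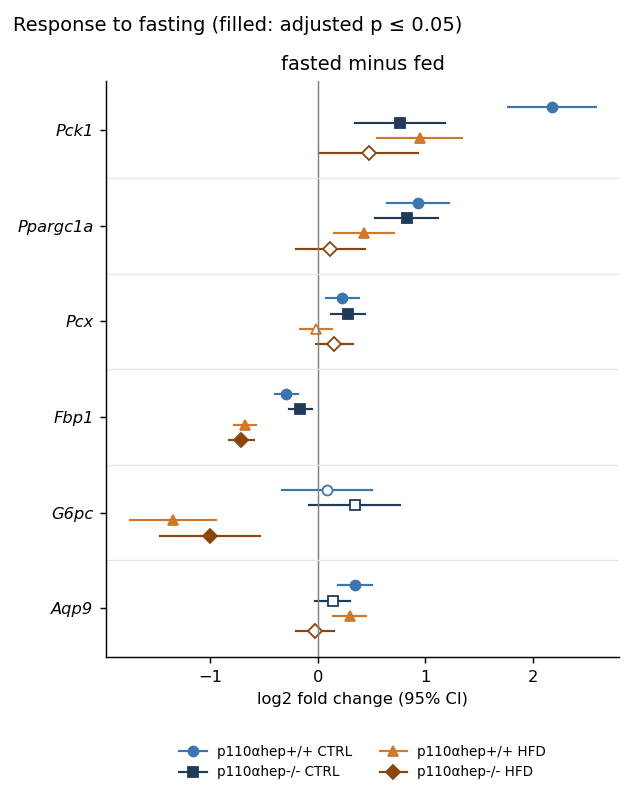
Fitted log2 fold change with fasting (fasted minus fed, horizontal axis) of each gene in both genotypes and diets, with 95% confidence intervals; filled markers are adjusted p values of at most 0.05. Pck1 extends to 2.18 in CTRL p110αhep+/+ livers, whereas Fbp1 lies below 0 in all 4 comparisons and G6pc has filled markers on HFD.

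Counting over the 6 genes, 5 were called in CTRL p110αhep+/+ livers, where 32.6% of all 20486 genes were called, and 5 in HFD p110αhep+/+ livers (28.5% of all genes). In p110αhep-/- livers 4 were called on CTRL diet (35.6% of all genes) and 2 on HFD (28.6% of all genes). Of the 24 gene and group combinations, 10 rose and 6 fell, a split of 13 and 4 with median scaling and 12 and 4 with processed signals.

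The effect of hepatocyte p110α was next examined in each diet and state. Pck1 and Ppargc1a were higher in fed p110αhep-/- than in fed p110αhep+/+ livers on both diets, and Pcx was lower. After the fast the Pck1 difference was no longer called, while Ppargc1a, Fbp1 and G6pc were higher in p110αhep-/- livers on CTRL diet.

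In fed CTRL mice Pck1 ran from 13.94 to 16.49 in p110αhep+/+ and from 15.89 to 16.77 in p110αhep-/- livers. The difference was 1.43 (2.70-fold, SE 0.21, adjusted p = 2.10e-06), and the overlap came from the single high array of the p110αhep+/+ group, without which the difference was 1.62. In fed HFD mice the range of 15.17 to 16.26 in p110αhep+/+ lay below that of 16.37 to 17.14 in p110αhep-/- livers, at 0.79 (adjusted p = 0.00312). In fasted mice the differences were 0.02 on CTRL diet (95% CI -0.39 to 0.42) and 0.32 on HFD (95% CI -0.12 to 0.75), neither called.

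Ppargc1a in fed CTRL mice was 8.60 to 9.02 in p110αhep+/+ and 9.13 to 9.82 in p110αhep-/- livers, without overlap (0.56, SE 0.15, adjusted p = 0.00496). It was higher by 0.61 in fed HFD (adjusted p = 0.00133) and by 0.45 in fasted CTRL p110αhep-/- mice (adjusted p = 0.0154), both with overlap. The latter call was lost when fasted CTRL p110αhep-/- replicate 2 was left out (0.34, adjusted p = 0.0839) and in 4 of 15 other settings (adjusted p up to 0.333). In fasted HFD mice it was 0.29 (95% CI -0.02 to 0.60, adjusted p = 0.138). The second probe gave 0.39, 0.51 and 0.45 for the called comparisons, each also called.

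Pcx was lower in p110αhep-/- livers of fed HFD mice, where the 6 values from 14.90 to 15.58 lay below the 15.77 to 15.84 of p110αhep+/+ livers (-0.49, SE 0.08, adjusted p = 5.09e-06). This was the tightest group of the study for Pcx, with an SD of 0.02. In fasted HFD mice the difference was -0.32 (adjusted p = 0.00202), with 15.39 to 15.60 against 15.60 to 15.96. In fed CTRL mice it was -0.25 (adjusted p = 0.0198) and in fasted CTRL mice -0.20 (adjusted p = 0.0528). The fed CTRL call was lost with median scaling (-0.14, adjusted p = 0.251).

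The later enzymes were called in fasted mice on CTRL diet. Fbp1 was 17.30 to 17.39 in p110αhep+/+ and 17.49 to 17.70 in p110αhep-/- livers, without overlap, a difference of 0.24 (SE 0.05, adjusted p = 0.000698). G6pc was 14.12 to 15.40 and 14.68 to 15.83, a difference of 0.72 (1.64-fold, SE 0.20, adjusted p = 0.00822) with overlap. The G6pc call was lost without array weights (0.61, adjusted p = 0.0509) and in 1 washing batch (0.60, adjusted p = 0.122). On HFD the fasted differences were -0.05 for Fbp1 (95% CI -0.17 to 0.06) and 0.13 for G6pc (95% CI -0.31 to 0.57). In fed mice G6pc was 0.46 higher on CTRL diet, which missed the threshold (adjusted p = 0.127).

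Aqp9 was lower in p110αhep-/- livers in fasted HFD mice (-0.25, adjusted p = 0.0196), with 14.24 to 14.58 against 14.28 to 14.83. Its dimmer probe gave 0.15 there, the opposite sign, and was instead called higher in fed p110αhep-/- livers on CTRL diet (0.25, adjusted p = 0.0492) and HFD (0.25, adjusted p = 0.0357). In fed mice the brighter probe had the same sign but was not called (0.08 on both diets), so no genotype call for Aqp9 was shared by both probes.

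Of the 6 genes, 3 were called in fed CTRL mice (21.7% of all genes), 3 in fed HFD mice (33% of all genes), 3 in fasted CTRL mice (24.8% of all genes) and 2 in fasted HFD mice (36.8% of all genes). The last count is close to the background share. Of 24 combinations 7 were higher and 4 lower, against 7 and 2 with either other scaling.

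The effect of the diet was compared within each genotype and state. In fed p110αhep+/+ livers 5 of the 6 genes were higher on HFD (4 with median scaling and 3 with processed signals), and in fasted livers of both genotypes G6pc and Fbp1 were lower. In fed p110αhep-/- livers none was called.

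In fed p110αhep+/+ livers Pck1 ran from 13.94 to 16.49 on CTRL diet and from 15.17 to 16.26 on HFD, a difference of 0.89 (1.85-fold, adjusted p = 0.00101) with overlap. Its size varied between washing batches, at 0.51 (adjusted p = 0.316) and 1.29 (adjusted p = 0.00829). G6pc went from 14.39, 14.61 and 15.19 to 15.04, 15.60 and 15.72, a difference of 0.83 (1.78-fold, adjusted p = 0.00235). Pcx went from 15.22 to 15.57 up to 15.77 to 15.84, without overlap (0.41, adjusted p = 7.17e-05). Fbp1, at 17.51 to 17.71 and 17.77 to 17.92, also did not overlap (0.18, adjusted p = 0.00821), but with median scaling its difference was 0.10 (adjusted p = 0.182).

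Aqp9 was called at 0.21 (adjusted p = 0.0448), a call lost in 9 of 48 fits with 1 array left out and in 9 of 15 other settings, among them median scaling (0.15, adjusted p = 0.176) and processed signals (0.10, adjusted p = 0.299). The dimmer probe gave 0.07, not called. Ppargc1a was 0.35 higher, which missed the threshold (adjusted p = 0.0628) but was called with median scaling (0.37, adjusted p = 0.0418) and with the compared arrays alone (adjusted p = 0.0143). Among the 6 genes, 5 were thus called, against 24% of all genes.

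In fed p110αhep-/- livers the same comparison gave 0 calls in limma, against 12.3% of all genes, and 3 genes (Pcx, Ppargc1a and Aqp9) with an unadjusted p under 0.05. The fitted differences were 0.24 for Pck1 (95% CI -0.20 to 0.69), 0.16 for G6pc (95% CI -0.29 to 0.61), 0.05 for Fbp1, 0.17 for Pcx, 0.40 for Ppargc1a and 0.21 for Aqp9. Ppargc1a was called without array weights (0.46, adjusted p = 0.0483) and within washing batch 1 (0.65, adjusted p = 0.0210). Pcx was also called within batch 1 (0.30, adjusted p = 0.0339). Whether the diet effect differed between genotypes in fed mice was tested directly, and the interaction was called for 0 of the 6 genes (2.95% of all genes). It was -0.64 for Pck1 (95% CI -1.24 to -0.04, adjusted p = 0.245) and -0.67 for G6pc (95% CI -1.28 to -0.07, adjusted p = 0.228), and with Pcx these were the 3 with an unadjusted p under 0.05. A difference between genotypes in this response was therefore not established.

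In fasted mice HFD was associated with lower G6pc in p110αhep-/- livers, which ranged from 14.68 to 15.83 on CTRL diet and from 13.56 to 14.74 on HFD (-1.19, 2.28-fold, adjusted p = 0.000236). In fasted p110αhep+/+ livers it was -0.60 (adjusted p = 0.0406), with 14.12 to 15.40 against 13.43 to 14.75, and leaving out 1 array lost the call in 8 of 48 fits. This call was also lost in 4 of 15 other settings, among them the compared arrays alone (-0.60, adjusted p = 0.0875) and washing batch 2 (-0.38, adjusted p = 0.459). Fbp1 fell without overlap in both genotypes, from 17.49 to 17.70 down to 16.88 to 17.30 in p110αhep-/- (-0.49, adjusted p = 7.79e-08) and from 17.30 to 17.39 down to 16.92 to 17.23 in p110αhep+/+ livers (-0.20, adjusted p = 0.00567). The latter was -0.40 with median scaling (adjusted p = 2.93e-06), and -0.31 (adjusted p = 0.0255) and -0.09 (adjusted p = 0.524) within the washing batches. Fbp1 was the sole member with a called genotype by diet interaction in fasted mice (-0.29, adjusted p = 0.0217, 5.07% of all genes called), which median scaling reduced to -0.14 (adjusted p = 0.338). Of the 6 genes, 2 were called in fasted p110αhep+/+ (16.1% of all genes) and 2 in fasted p110αhep-/- livers (10.9% of all genes). Over the 24 diet combinations 5 were higher and 4 lower, against 3 and 4 with processed signals and 4 and 4 with median scaling.

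**Figure D3:**
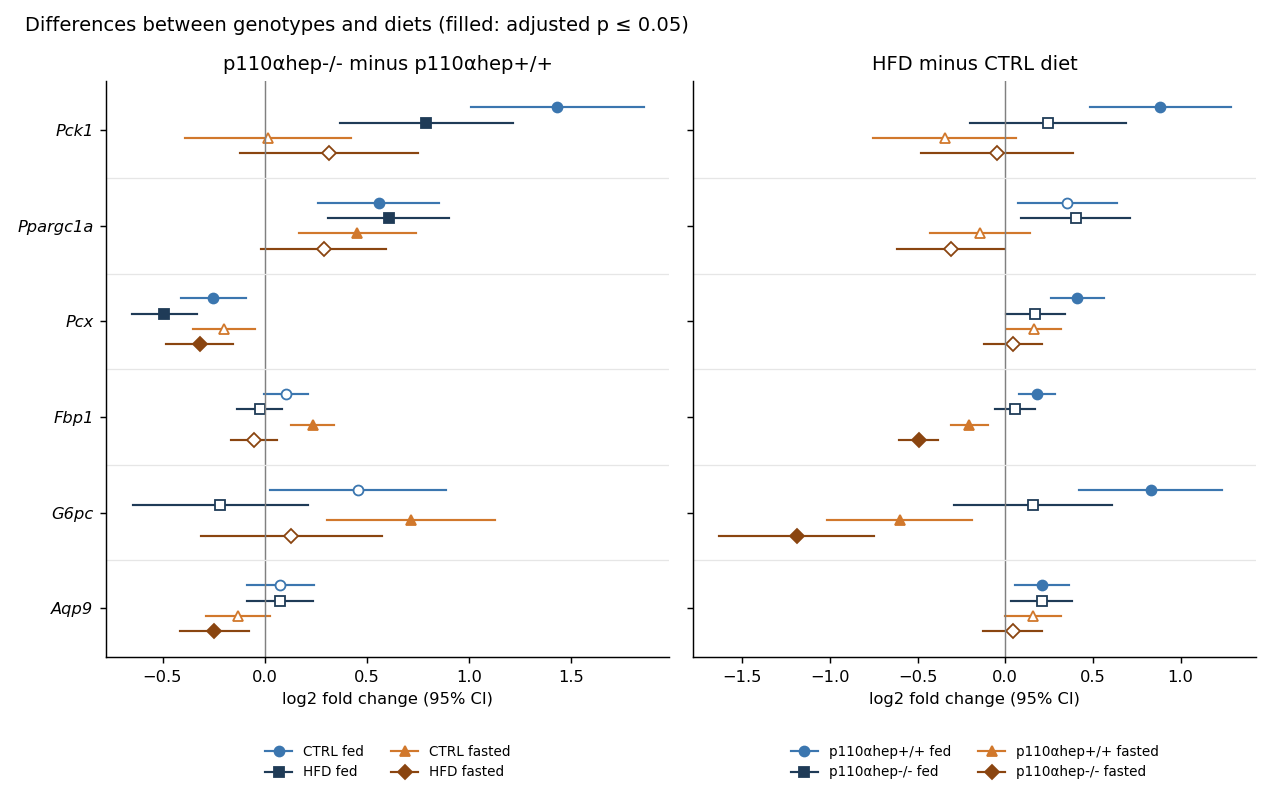
Fitted log2 differences (horizontal axis) between genotypes (p110αhep-/- minus p110αhep+/+) and between diets (HFD minus CTRL) for each gene, with 95% confidence intervals and filled markers for adjusted p values of at most 0.05. The Pck1 and Ppargc1a differences between genotypes lie above 0 in fed mice, and the diet lowers G6pc and Fbp1 in fasted mice.

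Each of the 8 called interactions was negative. The fasting rise of Pck1 was smaller in p110αhep-/- than in p110αhep+/+ livers on CTRL diet, with an interaction of -1.42 (95% CI -2.00 to -0.83, adjusted p = 0.00340), in a comparison that called 3.99% of all genes and only Pck1 among the 6. Within the washing batches it was -1.13 (adjusted p = 0.117) and -1.63 (adjusted p = 0.159). In fasted mice the levels of the 2 genotypes were 17.06 ± 0.21 and 17.10 ± 0.12 (SD, n = 6). On HFD the genotype by fasting interaction was called for 0 of the 6 genes (3.43% of all genes), and 1, Aqp9, had an unadjusted p under 0.05. For Pck1 it was -0.48 there (95% CI -1.08 to 0.13).

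The diet changed the fasting response of 3 genes in p110αhep+/+ livers, where 2.37% of all genes were called. Pck1 differed by -1.23 (adjusted p = 0.0125), G6pc by -1.43 (adjusted p = 0.00359) and Fbp1 by -0.39 (adjusted p = 0.00191). The Pck1 value was not called without array weights (-1.13, adjusted p = 0.0823), with the compared arrays alone (-1.23, adjusted p = 0.0655) or within either washing batch (-1.02 and -1.44). The G6pc (-1.40 and -1.29) and Fbp1 values (-0.45 and -0.29) were not called within either batch. In p110αhep-/- livers, with 8.02% of all genes called, G6pc (-1.35, adjusted p = 0.00417), Fbp1 (-0.55, adjusted p = 6.04e-06) and Ppargc1a (-0.71, adjusted p = 0.0342) were called. Within washing batch 1 G6pc (-1.59, adjusted p = 0.0226) and Fbp1 (-0.68, adjusted p = 0.00110) were called. Within batch 2 neither G6pc (-0.95, adjusted p = 0.362) nor Fbp1 (-0.33, adjusted p = 0.208) was. For G6pc the fed and fasted levels were 14.69 ± 0.33 and 14.81 ± 0.48 in CTRL and 15.52 ± 0.26 and 14.10 ± 0.43 in HFD p110αhep+/+ livers (SD, n = 6). In p110αhep-/- livers they were 15.26 ± 0.52 and 15.42 ± 0.43 on CTRL diet and 15.26 ± 0.28 and 14.29 ± 0.42 on HFD. The G6pc decline on HFD was thus present in both genotypes, and its genotype by fasting interaction on HFD was 0.35 (95% CI -0.27 to 0.96, adjusted p = 0.634). The Ppargc1a interaction lost its call in 8 of 48 fits that left out 1 array, with values of -0.69 to -0.60 in those fits, and in 6 of 15 other settings (adjusted p up to 0.588).

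**Figure D4:**
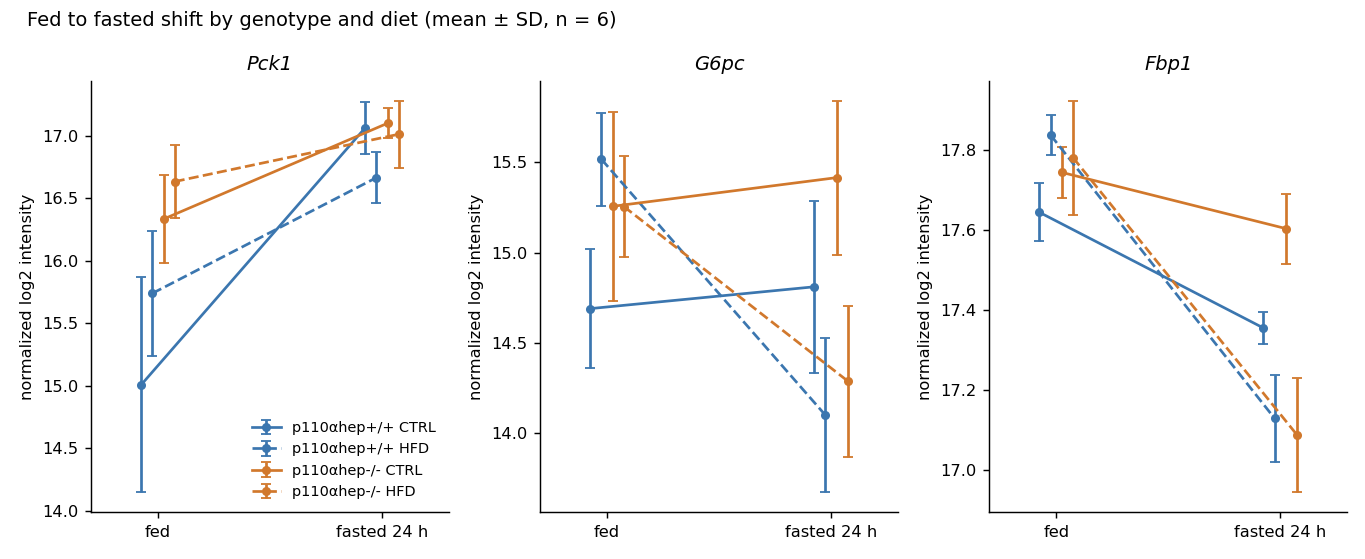
Mean normalized log2 level with SD (n = 6) of Pck1, G6pc and Fbp1 in fed and fasted mice, by genotype (colour) and diet (solid for CTRL, dashed for HFD). The fasted means of Pck1 lie between 16.67 and 17.10, and the HFD lines of G6pc and Fbp1 drop with fasting in both genotypes.

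The group means of Pck1 spanned 2.09 on the log2 scale, from 15.01 in fed CTRL p110αhep+/+ to 17.10 in fasted CTRL p110αhep-/- livers. In that order, 3 fasted groups (CTRL of both genotypes and HFD p110αhep-/-) lay within 17.01 to 17.10 and did not differ beyond their spread, taken as the larger SD of neighbours. The next, fasted HFD p110αhep+/+ (16.67), was not separated from fed HFD p110αhep-/- (16.63). G6pc spanned 1.42, from 14.10 in fasted HFD p110αhep+/+ to 15.52 in fed HFD p110αhep+/+ livers, and no pair of neighbours in its order differed beyond the spread. Ppargc1a spanned 1.35, from 8.83 in fed CTRL p110αhep+/+ to 10.18 in fasted CTRL p110αhep-/- livers. Of its neighbours, only the lowest pair, fed HFD (9.16) and fed CTRL (8.83) p110αhep+/+, differed beyond the spread.

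The other 3 genes covered narrower ranges. Fbp1 spanned 0.75, with the 4 fed groups highest (17.65 to 17.84) and both fasted HFD groups lowest (17.09 and 17.13). The lowest fed group, CTRL p110αhep+/+, did not differ beyond the spread from fasted CTRL p110αhep-/- livers (17.60). Pcx spanned 0.67, from 15.14 in fed CTRL p110αhep-/- to 15.81 in fed HFD p110αhep+/+ livers. Aqp9 spanned 0.50, with the 4 fasted groups highest (14.40 to 14.66). The lowest of these, CTRL p110αhep-/-, did not differ beyond the spread from fed HFD p110αhep-/- livers (14.38). The median SD within groups was 0.28 for Pck1 and Ppargc1a, 0.42 for G6pc, 0.13 for Aqp9, 0.12 for Pcx and 0.08 for Fbp1, so differences of a given size stood out more clearly for Fbp1 than for G6pc.

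The rest of the pathway was described with a list of 28 other genes of gluconeogenesis and substrate entry, 26 of which had a probe that passed the filter. With fasting, more of the called genes of this list fell than rose on HFD in both genotypes under each scaling. In CTRL p110αhep+/+ livers 7 rose and 13 fell (16% and 16.6% of all genes, with a median log2 change of -0.19 against 0.00 over all genes), and in HFD p110αhep+/+ livers 3 rose and 15 fell (13.8% and 14.7%). In CTRL p110αhep-/- livers 9 rose and 9 fell (16.4% and 19.2% of all genes), and in HFD p110αhep-/- livers 1 rose and 15 fell (13.9% and 14.7%, median -0.28). Those that fell included glucose-6-phosphate isomerase Gpi1 (-1.10 in CTRL p110αhep+/+, -0.47 in HFD p110αhep-/-) and enolase Eno1 (-0.68 and -0.78). The mitochondrial glycerol-3-phosphate dehydrogenase Gpd2 (-0.94 and -0.97) and the glucose transporter Slc2a2 (-0.45 and -0.73) also fell. Among those that rose in CTRL p110αhep+/+ livers were glycerol kinase Gyk (0.77) and the aspartate aminotransferase Got1 (0.72), which act on glycerol and amino acids. The split on CTRL diet depended on scaling, at 9 higher and 9 lower in p110αhep+/+ and 10 higher and 4 lower in p110αhep-/- livers with median scaling or processed signals.

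Between genotypes, more genes of the pathway list were lower than higher in p110αhep-/- livers in 3 of the 4 comparisons under each scaling. Of 26 genes, 0 were higher and 13 lower in fed CTRL mice (11% and 10.6% of all genes), and 3 and 14 in fed HFD mice (16.7% and 16.4%). In fasted CTRL mice 3 were higher and 5 lower (12.5% and 12.3% of all genes), and in fasted HFD mice 3 and 16 (19.1% and 17.7%). With median scaling these were 1 and 7, 3 and 8, 5 and 2, and 3 and 14, and with processed signals 1 and 9, 4 and 7, 5 and 2, and 3 and 14, so the direction in fasted CTRL mice depended on the scaling. The dicarboxylate carrier Slc25a10 was lower in fed CTRL (-0.69), fed HFD (-0.77) and fasted HFD mice (-1.03), as was cytosolic glycerol-3-phosphate dehydrogenase Gpd1 (-0.59, -0.75 and -1.37). Got1 was higher in fed HFD (0.88), fasted CTRL (0.75) and fasted HFD (0.91) p110αhep-/- livers.

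With HFD, 11 list genes were higher and 0 lower in fed p110αhep+/+ livers (12.4% and 11.6% of all genes, and 7 and 0 of the list with either other scaling), among them the pyruvate carrier subunit Mpc1 (0.55) and Gyk (0.51), and 8 were higher and 2 lower in fed p110αhep-/- livers (5.88% and 6.43% of all genes, and 3 and 2 of the list with median scaling). In fasted p110αhep-/- livers 0 were higher and 6 lower (5.66% and 5.19% of all genes, and 0 and 13 of the list with either other scaling), such as Got1 (-0.78) and Slc25a10 (-0.76). In fasted p110αhep+/+ livers 4 were higher and 2 lower (9.01% and 7.04% of all genes), which became 0 and 5 with either other scaling. Diet changed the fasting response of 2 of 26 list genes in p110αhep+/+ (2.37% of all genes) and 12 of 26 in p110αhep-/- livers (8.02% of all genes). All these values were negative, meaning less of a rise or more of a fall on HFD. They included lactate dehydrogenase Ldha (-0.45 and -0.98), Gyk (-0.56 and -0.50), Slc25a10 (-1.17 in p110αhep-/-) and Gpd1 (-1.02 in p110αhep-/-). Ldha and Gyk were thus called in both genotypes, as G6pc and Fbp1 were.

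The regulators of the pathway were described with 27 measured genes. More of them rose than fell with fasting, with 16 higher and 1 lower in CTRL p110αhep+/+ (16% and 16.6% of all genes), 13 and 3 in HFD p110αhep+/+ (13.8% and 14.7%), 14 and 3 in CTRL p110αhep-/- (16.4% and 19.2%) and 12 and 2 in HFD p110αhep-/- livers (13.9% and 14.7%, with medians of 0.28 to 0.42 against 0.00 over all genes). Foxo1, the factor that insulin excludes from the nucleus, rose by 0.84, 0.71, 0.67 and 0.99 in that order, and Cebpb by 0.83, 0.44, 1.03 and 0.95. The insulin receptor substrate Irs2 rose by 1.94, 0.98 and 0.89 in the first 3. Between genotypes, Irs2 was higher in p110αhep-/- livers in 4 of 4 comparisons (1.92 in fed CTRL, 1.48 in fed HFD, 0.87 in fasted CTRL and 0.91 in fasted HFD mice), and the kinase Sik1, which restrains CREB coactivators, in 3 (0.82 in fed CTRL, 1.24 in fasted CTRL and 0.54 in fasted HFD mice). Over the list, 5 regulators were higher and 0 lower in p110αhep-/- livers in fed CTRL, 7 and 1 in fed HFD, 5 and 3 in fasted CTRL and 11 and 0 in fasted HFD mice (11% and 10.6%, 16.7% and 16.4%, 12.5% and 12.3%, and 19.1% and 17.7% of all genes). With HFD, 4 were higher and 5 lower in fed p110αhep+/+, 3 and 0 in fed p110αhep-/-, 0 and 7 in fasted p110αhep+/+ and 1 and 4 in fasted p110αhep-/- livers (12.4% and 11.6%, 5.88% and 6.43%, 9.01% and 7.04%, and 5.66% and 5.19% of all genes). The hepatic factor Onecut1 was lower with HFD in fed p110αhep+/+ livers (-2.13), and Sik1 was lower in fasted p110αhep-/- (-1.29) and p110αhep+/+ livers (-0.58).

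Genes known to be repressed by insulin through FOXO factors gave a comparison for Pck1 and G6pc. Igfbp1, a secreted binding protein for insulin-like growth factors, was 3.40 higher with fasting in CTRL p110αhep+/+ livers and 3.28 higher in fed CTRL p110αhep-/- than in p110αhep+/+ livers. It was also 3.04 higher on HFD in fed p110αhep+/+ livers. Pck1 was called in the same direction in all 3 of these comparisons, and G6pc in the last one. In fed HFD mice, however, Pck1 was called higher in p110αhep-/- livers (0.79, limma adjusted p = 0.00312) and Igfbp1 was not. After the fast Igfbp1 was higher in p110αhep-/- livers by 1.90 on CTRL diet and 1.65 on HFD, where Pck1 was not called (0.02 and 0.32). G6pc was called higher in the former (0.72, adjusted p = 0.00822) and was not called in the latter (0.13). Pdk4, the kinase that turns pyruvate away from oxidation, rose with fasting by 1.33 in CTRL p110αhep+/+ and 4.13 in CTRL p110αhep-/- livers, and was 2.39 higher in fasted CTRL p110αhep-/- than p110αhep+/+ livers. In fasted p110αhep-/- livers it was lower on HFD (-2.26). Of the 6 such genes, 4 rose and 0 fell with fasting in CTRL p110αhep+/+ livers (16% and 16.6% of all genes), 2 and 0 in HFD p110αhep+/+ (13.8% and 14.7%), 5 and 1 in CTRL p110αhep-/- (16.4% and 19.2%) and 3 and 0 in HFD p110αhep-/- livers (13.9% and 14.7%). Between genotypes, 2 were higher and 0 lower in p110αhep-/- livers in fed CTRL (11% and 10.6% of all genes), 1 and 1 in fed HFD (16.7% and 16.4%), 4 and 0 in fasted CTRL (12.5% and 12.3%) and 3 and 0 in fasted HFD mice (19.1% and 17.7%). With HFD, 2 were higher and 0 lower in fed p110αhep+/+ livers (12.4% and 11.6% of all genes), 1 (Sesn1, 0.19) and 1 (Pdk4) in fasted p110αhep-/- livers (5.66% and 5.19%), and limma called none in the other 2 comparisons. The shares of all genes there were 5.88% and 6.43% in fed p110αhep-/- and 9.01% and 7.04% in fasted p110αhep+/+ livers.

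Among the opposing irreversible steps of glycolysis, liver pyruvate kinase Pklr fell with fasting in CTRL p110αhep+/+ (-2.15), HFD p110αhep+/+ (-1.58), CTRL p110αhep-/- (-1.84) and HFD p110αhep-/- livers (-1.69). Of the 4 genes of this list, 0 rose and 2, 1, 2 and 2 fell in that order (16.6%, 14.7%, 19.2% and 14.7% of all genes fell). Pklr was lower in p110αhep-/- livers in fed CTRL (-0.85), fed HFD (-1.44) and fasted HFD mice (-1.55). Over the list, 0 were higher and 2, 2, 1 and 1 lower in fed CTRL, fed HFD, fasted CTRL and fasted HFD mice (10.6%, 16.4%, 12.3% and 17.7% of all genes lower). With HFD, 1 was higher and 1 lower in p110αhep-/- livers of either state (5.88% and 6.43% of all genes fed, 5.66% and 5.19% fasted). In p110αhep+/+ livers 0 were called in either state (24% of all genes fed, 16.1% fasted). Of 7 measured genes of glycerol handling and other aquaporins, 2 rose and 2 fell with fasting in CTRL p110αhep+/+, 1 and 2 in HFD p110αhep+/+, 2 and 1 in CTRL p110αhep-/- and 1 and 3 in HFD p110αhep-/- livers (16% and 16.6%, 13.8% and 14.7%, 16.4% and 19.2%, and 13.9% and 14.7% of all genes). Between genotypes 0 were higher and 3 lower in fed CTRL, 0 and 4 in fed HFD, 1 and 2 in fasted CTRL and 1 and 3 in fasted HFD mice, the higher one being Aqp3 (0.64 and 0.25). The shares of all genes in that order were 11% and 10.6%, 16.7% and 16.4%, 12.5% and 12.3%, and 19.1% and 17.7%. Aqp8 was lower in p110αhep-/- livers in all 4 comparisons (-2.09 in fed CTRL, -3.65 in fed HFD, -2.51 in fasted CTRL and -4.01 in fasted HFD mice), and it fell with fasting in all 4 groups (-1.74, -1.43, -2.16 and -1.79), whereas Aqp9 rose or was not called with fasting.

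Whether the 6 genes varied together between mice of a group was tested on the deviation of each array from its group mean, over 48 arrays and 15 pairs. Of these, 3 pairs passed adjustment, and Fbp1 and Pcx had the highest correlation. Their Pearson's r was 0.65 and Spearman's rho 0.63 (permutation p = 3e-05 and 5e-05, 0.00045 and 0.00075 after Benjamini-Hochberg adjustment). It was 0.60 (adjusted permutation p = 0.0203) and 0.64 (adjusted permutation p = 0.205) within the washing batches, 0.67 without the 2 arrays farthest from the median of Fbp1, and 0.55 with median scaling. Pcx and Aqp9 gave r = 0.51 and rho = 0.44 (permutation p = 0.00091 and 0.00298, adjusted 0.00683 and 0.0224), and Fbp1 and Aqp9 r = 0.48 and rho = 0.43 (permutation p = 0.00361 and 0.0049, adjusted 0.0180 and 0.0245). Within the washing batches r was 0.50 and 0.53 for the former and 0.65 and 0.26 for the latter. Both depended on 2 arrays for their call, since without these r was 0.34 in each and neither passed adjustment. With median scaling Pcx and Aqp9 passed (r = 0.56, adjusted permutation p = 0.00345). Fbp1 and Aqp9 did not (r = 0.41, adjusted permutation p = 0.0691). Pck1 and G6pc, often described as regulated together, had an r of 0.05 (permutation p = 0.740), with -0.31 and 0.35 within the washing batches, neither passing adjustment, and Pck1 and Ppargc1a 0.16 (adjusted p = 0.414). No relation of Pck1 with G6pc or Ppargc1a within groups was detected.

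**Figure D5:**
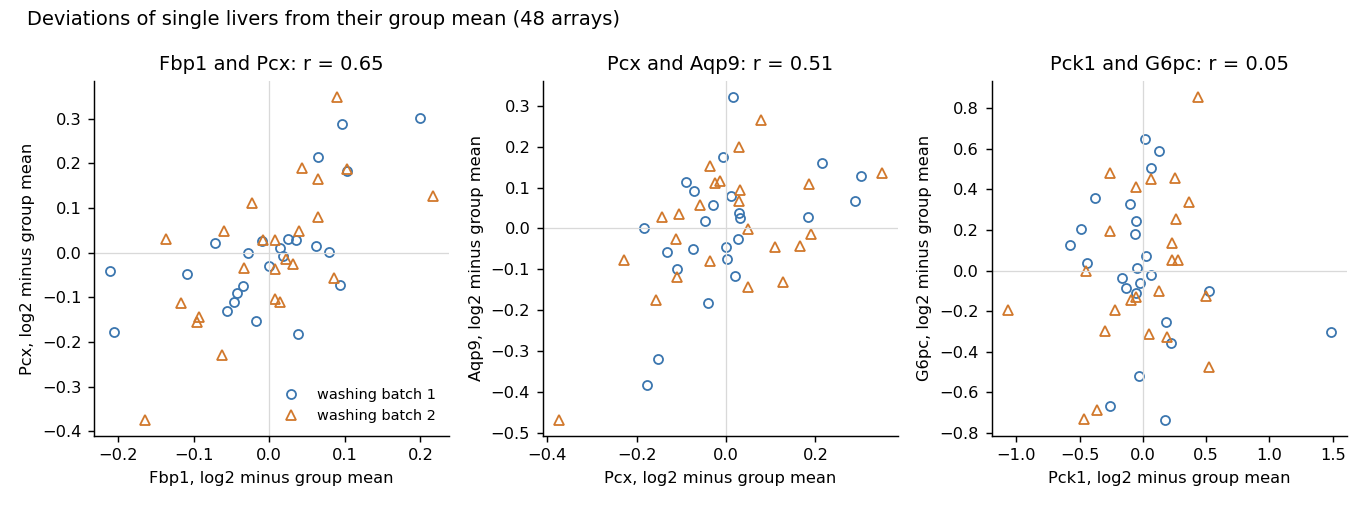
Deviation of each array from its group mean (log2) for Fbp1 against Pcx, Pcx against Aqp9 and Pck1 against G6pc, with 48 arrays coloured by washing batch. Fbp1 and Pcx deviate together (r = 0.65), while the r of Pck1 and G6pc is 0.05 over both batches, from -0.31 in one and 0.35 in the other.

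The genes whose pattern over the 48 arrays was most like each member, by Pearson's r among 16107 genes, are given as a description, since all arrays share the group differences. For Pck1 they were 5330406M23Rik (0.85), Ppp1r15a (0.84) and Chic2 (0.84), and for Ppargc1a Mfsd7c (0.80), Slco1a4 (0.80) and Slc7a2 (0.79). For Pcx they included Acsf3 (0.91), a mitochondrial acyl-CoA synthetase, and Serinc2 (0.89). For Fbp1 they included Gm35986 (0.88) and Elovl6 (0.84), and for Aqp9 9530091C08Rik (0.77), Sult1b1 (0.77) and Mmd (0.77). G6pc had the least similar neighbours, Cox10 (0.70), Hgd (0.67) and Pwp1 (0.66). The 6 genes themselves were left out of this search.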

How the data were processed

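Liver RNA (200 ng a sample) was labelled with Cy3 and hybridised to Agilent 1-colour arrays, 1 array per mouse. The deposited scanner files hold linear intensity per spot, extracted by the authors with Feature Extraction 10.10.1.1 and not normalized between arrays. A deposited table holds the authors' log2 values for 32437 probes, which they filtered, corrected for washing batch and quantile normalized, and it was used as an alternative.

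Median spot signals were put on the log2 scale, spots marked as outliers were set to missing and spots of a probe were averaged. Probes were kept when well above background on at least 5 of 6 arrays of 1 group. The washing batch was removed with the 8 group means protected, followed by quantile normalization. limma 3.58.1 (R 4.3.3) was fitted with array weights (0.35 to 1.71) over 48 arrays, with 18 contrasts and Benjamini-Hochberg adjustment over 30793 probes. Because the batch was removed before the fit, its degrees of freedom were not counted, and a fit with batch as a covariate was an alternative. The number of arrays limits the precision. Tested on simulated data for fasting in CTRL control mice, with 30752 probes, the fit recovered 88% of changes of 0.5 and 99% of changes of 1 on the log2 scale, with 14 false calls. The simulation changed 100 probes at each size and drew independent normal noise with each probe's SD. Batch removal and quantile normalization were not repeated in it, so it covers the model fit alone and gives no error rate for those steps.

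The members and gene lists were chosen with earlier results of these data known. From each list, the genes named are those called in a comparison described, at most 6 by size of change, and a gene so named may be given in other comparisons too. Replicate numbers did not pair the samples: arrays sharing a number correlated at a median of 0.01 in their deviations. The alternatives covered signal, scaling, filter, batch, slide, weights, probe choice, threshold and each array left out. The scaling of the gene lists and of the correlations was added after seeing the data. Probe positions within exons are not analysed here. Some genes that the naming rule selects are not reported here.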

Additional observations from a re-analysis of the deposited data

Results flagged for a closer look

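In 48 groups of 6 values (6 genes in 8 groups), 3 values, on 2 arrays, lay far from the others of their group by Dixon's criterion, which chance meets in about 1 in 20 groups. Fbp1 was 16.92 in fasted HFD p110αhep+/+ replicate 6, and Aqp9 was 14.28 in the same array. Aqp9 was 13.92 in fed HFD p110αhep-/- replicate 3. Without the former array the genotype by fasting interaction of Aqp9 on HFD was called at -0.38 (limma adjusted p = 0.0436), and without the latter Aqp9 was called 0.25 higher on HFD in fed p110αhep-/- livers (adjusted p = 0.0349).

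The effect of one factor differed with another by a test of the difference in 8 cases. For Pck1 the fasting response differed by -1.42 between genotypes on CTRL diet and by -1.23 between diets in p110αhep+/+ livers. For G6pc it differed between diets by -1.43 in p110αhep+/+ and -1.35 in p110αhep-/- livers, and for Fbp1 by -0.39 and -0.55. For Ppargc1a it differed between diets by -0.71 in p110αhep-/- livers. For Fbp1 the diet effect in fasted mice differed by -0.29 between genotypes. A negative value means less of a rise or more of a fall in p110αhep-/- livers or on HFD. For Pck1 and Ppargc1a the rise was smaller, and for G6pc and Fbp1 the fall was larger.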

How the results depend on the processing

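No called value reversed its direction, and all 44 had the same sign within each washing batch. Calls for the 6 genes numbered 16 for fasting, 11 for genotype, 9 for diet and 8 for interactions. With 3 arrays a group, washing batch 1 alone gave 11, 7, 6 and 3 in that order, and batch 2 alone 10, 4, 2 and 0. Requiring a fold over 1.5 as well gave 9, 4, 4 and 5, and fitting the compared arrays alone gave 5 interactions. The replicate block gave 16, 12, 8 and 7, as a check on numbers that do not pair the samples. Leaving out 1 array at a time gave 15 to 16, 10 to 12, 8 to 10 and 7 to 9. Median scaling kept 37 and processed signals 36 of the 44 called values, and the submitters' table kept 44. Of the 3 correlated pairs, 0 passed in washing batch 2, 1 without the 2 farthest arrays and 2 with median scaling. The cause of these changes was not tested, and each batch alone also held fewer arrays.

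Calls close to the threshold depended on single arrays. Besides those given above, Pcx in fed CTRL mice by genotype was not called in 4 fits with 1 array left out (adjusted p up to 0.0944), Ppargc1a with fasting in HFD p110αhep+/+ livers in 3 (up to 0.0854), and Fbp1 with fasting in CTRL p110αhep-/- livers and Aqp9 by genotype in fasted HFD mice in 2 each. Pcx by genotype in fasted CTRL mice, at an adjusted p of 0.0528, was called in 16 such fits. It was also called in some other settings, such as batch as a covariate (-0.21, adjusted p = 0.0394) and the replicate block (-0.20, adjusted p = 0.0497).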
